A study of Mus musculus with 22 samples.

Results

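Removal of the pituitary was compared with sham surgery in the liver of female mice on 2 dye-swapped arrays, out of 22 arrays in a series of 11 such comparisons. Both arrays were chosen by their labels, and every log2 ratio was turned to hypophysectomised (Hypox) over intact by the dyes. The mice were females of the outbred ICR strain aged 8 weeks. The intact group (F sham, 8 mice) was sham-operated and injected with vehicle according to the study's design, while the sample labels call it untreated. The Hypox group (F Hypox, 7 mice) had lost the pituitary as adults and received no hormone. Each array set 1 pool of liver RNA from each group against the other. Array 1 (replicate 1) held a Hypox pool of 3 mice in the green dye and a sham pool of 3 mice in the red dye. Array 2 (replicate 2) held a Hypox pool of 2 mice in red and a sham pool of 3 mice in green. The deposited ratio table carries the values of each of these arrays under the other's replicate number, so which array holds the pool of 2 mice is not settled. No mean below depends on it. A pool gives 1 value for several mice, so the spread between mice was not measured, and n is 2 arrays throughout.

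The anterior pituitary releases growth hormone (GH), prolactin, thyrotropin, corticotropin and the gonadotropins, so its removal takes away several hormone axes together. In liver, GH binds its receptor and activates JAK2 and the transcription factor STAT5, which induces Igf1 and the feedback inhibitors Cish and Socs2. Rodents release GH in a sex-dependent pattern, more continuous in females than in males, and many liver enzymes for steroids and drugs are made in 1 sex more than in the other through that pattern. Thyroid hormone, glucocorticoids and sex steroids act on liver through nuclear receptors.

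The arrays had 26191 genes that were bright enough to test, 13760 of them with a gene symbol. The share of spots well above background was 74.5% in green and 77.5% in red on array 1. On array 2 it was 70.3% in green and 57.1% in red, the channel of the Hypox pool, and that was the lowest of the 44 channels in the series. Hepatocyte markers were bright in both groups: 6 of 6 tested were well above background in every pool, and their summed log2 signal was 18.9 and 19.5 in Hypox against 19.7 and 19.2 in sham on arrays 1 and 2. Of 11 skeletal muscle markers and 8 pancreatic markers none was called, and Actn3, Ckm, Mb, Pvalb and Pnlip were not above background in either group. Below, 2 values joined by "and" are those of array 1 and array 2 in that order, and a mean is given ± SE from the limma fit to all 22 arrays. Calls of higher or lower need an adjusted p below 0.05 and the same sign on the 2 arrays.

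Loss of the pituitary changed a large part of the liver transcriptome. Of the 26191 genes, 3825 (14.6%) were called higher and 4317 (16.5%) lower in Hypox liver. Each count of a gene list below is to be read beside these shares. Most of these changes were small, and the large ones were more often falls. A change of at least 1.5-fold was found for 1065 genes called higher and 1605 called lower, of at least 4-fold for 57 and 125, and of at least 16-fold for 2 and 21. With array 1 left out the counts of higher and lower calls fell to 2202 and 2785, and with array 2 left out to 1633 and 1763. Centring each array on its median in place of the loess curve gave 902 and 995, and this setting is named below for each list whose count it moved by over 1.5 times. Array 1 and array 2 ratios had r = 0.785 across genes, a description only, since genes are not independent replicates. The brightest genes were the exception to this agreement. Among the 100 brightest, 60 went opposite ways on the arrays, with a median of -0.387 on array 1 and 0.409 on array 2. Small shifts of very abundant liver transcripts were therefore not called, such as albumin (Alb) at -0.77 and 0.23.

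**Figure D1:**
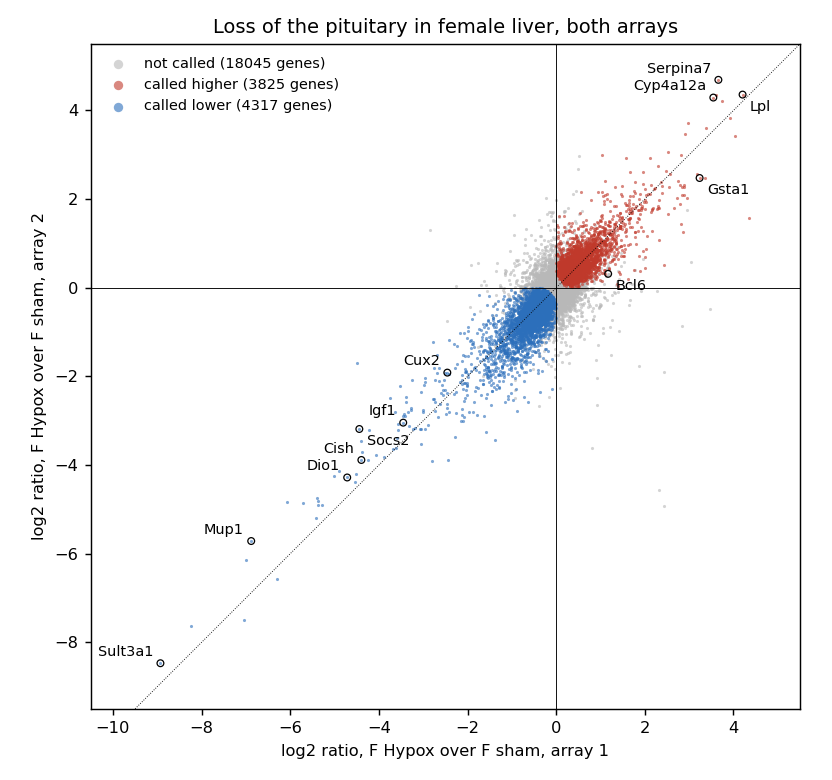
Log2 ratios of Hypox over sham liver on array 1 (x axis) and array 2 (y axis) for every gene measured on both arrays, with called genes coloured and the dotted line marking equal values. Most of the circled genes lie near that line, from Sult3a1 at -8.93 and -8.47 to Lpl at 4.21 and 4.36.

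Promoters of 2 GH-responsive genes that fell, Cish and Igfals, are printed first because they hold the STAT5 motif TTCNNNGAA, here in capitals, while most promoters do not. The motif was searched on both strands from 250 bases before to 50 after the start of each gene in the RefSeq table (GRCm38.p6), and 8.3% of 32851 promoters hold it. Cish holds it at 2 places that do not overlap, at positions 1 and 12 counted from the start site as 1. Igfals has 3 promoters in the table, and 2 of them hold the motif once each. Of these, 150 bases of promoter 2 are shown.
Cish, chr9:107296409-107296708, plus strand: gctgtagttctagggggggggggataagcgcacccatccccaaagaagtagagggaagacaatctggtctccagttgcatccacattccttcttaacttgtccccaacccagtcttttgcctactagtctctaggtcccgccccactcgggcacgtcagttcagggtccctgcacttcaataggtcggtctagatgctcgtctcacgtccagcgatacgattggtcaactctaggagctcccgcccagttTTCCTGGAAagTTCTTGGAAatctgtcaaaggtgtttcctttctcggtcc
Igfals, chr17:24878081-24878230, plus strand: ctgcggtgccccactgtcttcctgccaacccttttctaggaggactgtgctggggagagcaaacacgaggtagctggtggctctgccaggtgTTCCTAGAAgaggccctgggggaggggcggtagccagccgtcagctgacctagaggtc
Of the 11 tested genes of GH signalling that have a promoter in the table, Cish, Prlr and Socs3 hold the motif. In the IGF axis Igfals holds it, of 10 genes. These counts take a gene as a holder if any of its promoters holds the motif, which is so for 9.55% of 27025 genes. A match describes the letters in this window and is no evidence of binding.

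The direct feedback targets of GH had fallen furthest among the genes of its own pathway. Cish, a STAT5-induced inhibitor of cytokine receptors, had a log2 signal (per channel, after normalization between channels and arrays) of 13.25 and 14.01 in the sham pools and of 8.86 and 10.13 in the Hypox pools. Both Hypox pools lay far below both sham pools, a log2 ratio of -4.39 and -3.89 (mean -4.14 ± 0.68, 17.6-fold lower, adjusted p = 0.00062). Socs2, which limits GH receptor signalling, went from 14.07 and 13.86 in sham to 9.63 and 10.68 in Hypox, a mean of -3.81 ± 0.39 (adjusted p = 2.1e-05). The prolactin receptor gene Prlr fell in both pools to nearly the same signal, from 13.38 and 13.18 to 11.26 and 11.22 (-2.04 ± 0.27, adjusted p = 0.00014). Stat5a fell by 0.89 and 1.00. Of the 13 pathway genes tested these 4 were called lower and none higher, and the same count was obtained with either array left out. The receptor and kinase that start the signal were not among them: Ghr had ratios of -0.43 and 0.04, Jak2 of 0.11 and 0.25, and Stat5b of 0.43 and 0.54.

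Circulating IGF1 is made by the liver, and carried in blood in a complex with an IGF binding protein and the acid-labile subunit encoded by Igfals. Igf1 signal was 16.92 and 17.30 in sham and 13.47 and 14.25 in Hypox pools, so the groups were separated by nearly 3 log2 units on their closest pools. Its mean ratio was -3.25 ± 0.16 (adjusted p = 6.0e-08). Igfals fell with it, from 11.77 and 11.34 to 9.22 and 8.91 (-2.49 ± 0.10). The binding protein gene Igfbp2 moved the other way, from 14.43 and 14.46 in sham to 16.33 and 16.12 in Hypox (1.78 ± 0.17, adjusted p = 1.2e-05). Igfbp4 fell by 0.71 and 0.66. Of 11 genes of the axis 2 rose and 4 fell. Under median centring these counts were 1 and 2. The calls of Igf2r (0.80 and 0.51) and Igfbp3 (-0.47 and -0.32) were lost when array 1 was left out (adjusted p = 0.26 and 0.18), and that of Igf2r also without array 2 (adjusted p = 0.17). Igfbp1 (-0.42 and -0.87) and Igf2 (0.25 and 0.79) were not called.

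**Figure D2:**
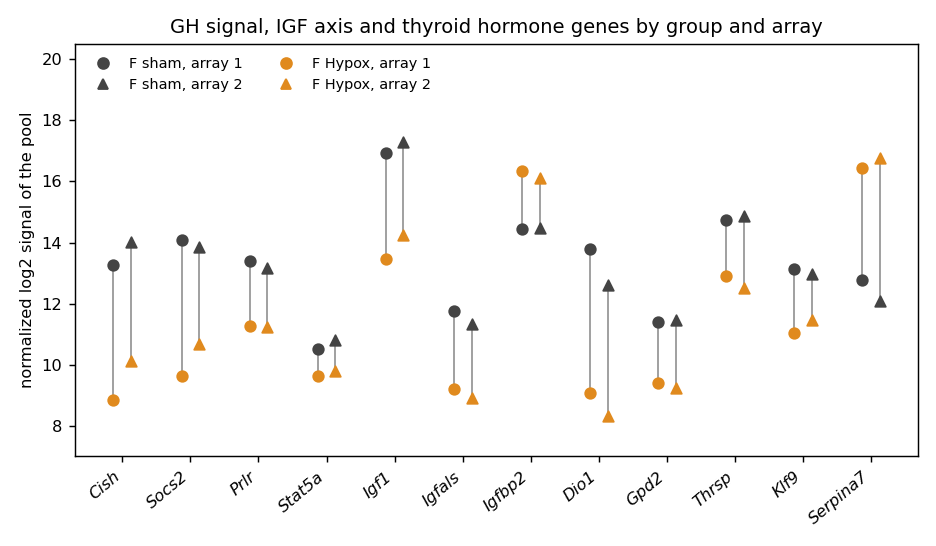
Normalized log2 signal (y axis) of genes of the GH, IGF and thyroid hormone axes in each pool, with circles for array 1, triangles for array 2, dark grey for sham and orange for Hypox, and a line joining both pools of an array. For each gene shown the Hypox pools lie on the same side of both sham pools, above them for Igfbp2 and Serpina7 and below them for the other 10 genes.

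Genes that handle or respond to thyroid hormone changed in both directions. Dio1, the deiodinase that activates thyroxine, had a signal of 13.79 and 12.61 in sham and of 9.07 and 8.33 in Hypox liver, a mean ratio of -4.50 ± 0.34 (adjusted p = 2.0e-06). Gpd2, the mitochondrial glycerol phosphate dehydrogenase, fell in both pools by nearly the same amount, -2.02 and -2.20 (mean -2.11 ± 0.11). Thrsp, a regulator of lipogenesis named for its response to thyroid hormone, fell by 1.82 and 2.34. The transcription factor Klf9 followed with -2.10 and -1.53 and the malic enzyme gene Me1 with -1.04 and -0.88. Serpina7, which encodes thyroxine-binding globulin, did the opposite: it went from 12.79 and 12.09 in sham to 16.45 and 16.78 in Hypox (4.18 ± 0.18, adjusted p = 1.8e-08), the largest rise but 1 in the comparison. Of 12 genes of the list 6 fell and 4 rose, with a median of -0.78, while that of all genes tested was -0.0035. With either array left out the falls stayed at 6, but 1 gene in place of 4 was called higher. Median centring also left 1 gene called higher, with 5 lower.

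Female-biased liver genes were lower for the most part. Of 32 genes listed as female-biased, 23 were called lower and none higher, and the median of the list was -1.45. Leaving out array 1 or array 2 left 17 falls in each case. The largest fall of the whole comparison was in Sult3a1, a sulfotransferase: its signal was 17.42 and 17.11 in sham and 8.50 and 8.64 in Hypox liver, a mean of -8.70 ± 0.67, or 416-fold (adjusted p = 2.2e-06). It remained above background in both Hypox pools. Lifr, the receptor of leukaemia inhibitory factor, fell evenly by 3.06 and 3.19. Cyp2c40, an arachidonate-metabolising P450, fell by 3.52 and 2.22, and the organic anion transporter gene Slc22a26 by 2.50 and 1.91. Neither Cyp2b gene named here was called: Cyp2b9 gave -0.45 and 0.32 and Cyp2b10 0.41 and 0.18.

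Male-biased genes were called lower more often than higher. Of 21 tested, 3 rose, a share near the 14.6% of all genes, and 8 fell in female Hypox liver, with a list median of -0.16. Cyp4a12a, a fatty acid hydroxylase, had a sham signal of 9.90 and 10.71 and rose by 3.55 and 4.29 (3.92 ± 0.25, adjusted p = 4.9e-07). A second probe of the gene gave 1.34, and near-identical Cyp4a12 copies may share these signals. Nox4, an NADPH oxidase, rose by 2.83 and 2.08. Other male-biased genes fell. Mup1, a major urinary protein, fell from 18.31 and 19.33 to 11.43 and 13.61 (-6.30 ± 0.57), and the log2 ratios of Mup5 were -5.72 and -4.86 and those of Mup4 -4.22 and -3.20. The members of this family are near-identical, and their probes cannot be told apart. The steroid dehydrogenase gene Hsd3b5 fell by 3.41 and 2.90, and the transporter gene Slco1a1 by 3.39 and 2.46.

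Among the regulators of sex-biased expression, the female-biased repressor Cux2 fell from 9.81 and 8.71 in sham to 7.36 and 6.80 in Hypox, with no overlap of the groups (-2.18 ± 0.14, adjusted p = 3.5e-07). Trim24, a nuclear receptor cofactor, fell by 1.59 and 1.93. Bcl6, a male-biased repressor, had ratios of 1.17 and 0.31. Both were above 0 but the mean of 0.74 ± 0.28 was not called (adjusted p = 0.058, and between 0.024 and 0.62 over the alternatives tried). Of 29 liver transcription factor genes 3 rose and 10 fell, and leaving out either array reduced the falls to 6. With median centring 1 was called higher and 5 lower. Onecut1, a hepatic homeobox factor, fell by 1.49 and 1.54, and Ppara, the receptor that induces fatty acid oxidation, by 1.42 and 1.95. Pparg, its relative known for fat storage, rose from 10.65 and 10.17 to 12.53 and 12.16 (1.93 ± 0.14). Cebpb was -1.69 and -0.95, a call that was lost without array 1 (adjusted p = 0.12).

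Receptors and enzymes of sex steroids were called lower more often than higher. Esr1, the oestrogen receptor alpha, fell almost equally in both pools, from 12.06 and 12.25 to 8.99 and 9.07 (-3.13 ± 0.13, adjusted p = 1.7e-08), although another probe of the gene gave -0.54. Hsd17b2, which inactivates oestradiol and testosterone, fell by 1.27 and 1.88 and Cyp17a1, a steroid hydroxylase, by 1.94 and 1.19. Hsd17b6 rose by 1.08 and 1.20. In all 3 of 13 genes rose and 6 fell. Sult1e1, which sulfates oestrogens, was -0.91 and -0.77, and its call was lost without array 2 (adjusted p = 0.054).

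Among growth factor and cytokine receptors, 5 of 13 fell and 1 was called higher. Median centring gave 5 falls and 0 rises. Beside Lifr, the epidermal growth factor receptor gene Egfr fell by 2.09 and 1.02 and the interleukin 1 receptor gene Il1r1 by 1.07 and 1.39. Il6ra fell by 0.62 and 0.39. Erbb3 was -0.48 and -0.98, with a second probe opposite at 0.07, and Lepr, the leptin receptor gene, was 0.54 and 1.68. The calls of these 2 genes were lost without array 2 (adjusted p = 0.11 and 0.53).

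Cholesterol synthesis was the metabolic pathway with the highest share of falls among those listed. Of 19 enzymes tested, 15 were lower in Hypox liver and none was higher, with a median of -1.10. Nsdhl, a sterol dehydrogenase, fell from 13.42 and 13.52 to 11.71 and 11.44 (-1.89 ± 0.26, adjusted p = 0.00019). Sc5d, the lathosterol desaturase, fell from 15.97 and 15.64 to 13.91 and 14.09. Cyp51, the lanosterol demethylase, fell by 1.28 and 1.95. Squalene epoxidase, Sqle, went from 14.06 and 14.48 to 11.63 and 10.59, the largest mean of the list (-3.16 ± 0.68). The median of the list was -0.93 on array 1 and -1.26 on array 2, and the count depended on array 2: 8 enzymes were called lower without it and 12 without array 1. The calls of Sqle, Hmgcs1 (-1.70 and -2.43) and Msmo1 (-1.17 and -2.01) were lost without array 2 (adjusted p = 0.11, 0.099 and 0.17).

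The promoters of cholesterol enzymes share the CCAAT box, in capitals on either strand (ATTGG on the strand shown is its complement), and are printed from 100 bases before to 50 after the start. Of 14 enzymes with a promoter in the RefSeq table, CCAAT lies in 13 within 300 bases, among them the 12 of the 14 that were called lower, against 41.1% of 27025 genes (37.4% of promoters). A sterol regulatory element of 10 bases, searched in the same way, was found in 0 of the 14 and in 0.0913% of promoters.
Hmgcs1, chr13:119690251-119690400, plus strand: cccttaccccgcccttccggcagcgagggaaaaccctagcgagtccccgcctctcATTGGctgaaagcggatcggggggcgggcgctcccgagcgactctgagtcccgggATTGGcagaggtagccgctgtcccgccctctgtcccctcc
Nsdhl, chrX:72918421-72918570, plus strand: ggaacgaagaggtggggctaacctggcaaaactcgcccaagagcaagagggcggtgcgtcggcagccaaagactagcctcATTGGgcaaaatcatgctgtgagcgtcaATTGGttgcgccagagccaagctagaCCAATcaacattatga
Sc5d, chr9:42264251-42264400, minus strand: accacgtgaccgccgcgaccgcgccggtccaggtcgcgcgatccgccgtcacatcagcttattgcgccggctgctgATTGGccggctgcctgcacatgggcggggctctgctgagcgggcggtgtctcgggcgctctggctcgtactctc
Cyp51, chr5:4104648-4104797, minus strand: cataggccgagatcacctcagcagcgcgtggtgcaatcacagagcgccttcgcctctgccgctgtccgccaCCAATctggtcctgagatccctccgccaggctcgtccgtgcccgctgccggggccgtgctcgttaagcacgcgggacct
Msmo1, chr8:64733529-64733678, minus strand: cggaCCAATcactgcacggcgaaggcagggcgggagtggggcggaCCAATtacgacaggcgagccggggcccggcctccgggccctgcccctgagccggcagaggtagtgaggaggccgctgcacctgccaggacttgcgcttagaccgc
Tm7sf2, chr19:6067801-6067950, minus strand: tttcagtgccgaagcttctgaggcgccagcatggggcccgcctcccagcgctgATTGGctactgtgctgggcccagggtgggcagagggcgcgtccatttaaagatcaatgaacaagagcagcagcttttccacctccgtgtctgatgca
The 6 genes shown fell with log2 means from -2.07 (Hmgcs1) to -1.57 (Tm7sf2), and their CCAAT boxes differ in number and place.

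Genes that take up, export or sense cholesterol did not follow the enzymes as a group. Of 13 tested 4 were called higher and 4 lower, but 1 and 2 were called higher without array 1 and array 2. After median centring 0 were higher and 1 lower. Scap, the escort of the sterol-sensing factor SREBP, fell by 0.86 and 0.77 and Insig2, its anchor, by 0.73 and 0.67. The exporter gene Abca1 rose by 0.56 and 0.82. The biliary cholesterol exporters Abcg5 (1.06 and 1.27) and Abcg8 (0.84 and 1.35) were each higher in both Hypox pools, but both calls were lost with either array left out (adjusted p from 0.074 to 0.33). Stard4, a sterol carrier, was -0.57 and -1.23 and lost its call without array 2 (adjusted p = 0.29).

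Bile acid genes were lower more often than higher, 10 against 1 of 20, and 6 fell with either array left out. Median centring also gave 6 falls. Slco1a1 is given above. Cyp27a1, the sterol 27-hydroxylase, fell by 1.71 and 1.32, Cyp7b1, the oxysterol hydroxylase, by 1.52 and 1.12, and Slc10a1, the main bile acid uptake carrier, by 1.37 and 1.22. Slco1a4, another organic anion carrier, rose from 14.34 and 14.02 to 15.99 and 15.48 (1.56 ± 0.15). Cyp39a1, an oxysterol hydroxylase, was -1.42 and -1.65, a call lost with either array left out (adjusted p = 0.060 and 0.0835). Cyp7a1, the rate-limiting enzyme of bile acid synthesis, gave opposite ratios of 0.62 and -1.15.

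Lipid supply and storage genes moved in both directions. Lpl, the lipase that frees fatty acids from lipoproteins and is low in adult liver, was the largest rise of all: 12.30 and 11.74 in sham against 16.50 and 16.10 in Hypox liver (4.28 ± 0.18, 19.4-fold, adjusted p = 1.7e-08), and a second probe gave 3.09. Adipocytes also make Lpl, and of 6 adipocyte markers 2 were called higher, Fabp4 at 0.94 and 0.83 and Lipe at 0.11 and 0.37, and 1 was called with either array left out or with median centring. Their summed log2 signal was 13.8 and 13.7 in Hypox and 12.9 and 12.8 in sham, Plin1 was not above background in sham, and their part in the rise of Lpl was not tested. In bulk liver, more RNA per cell and more cells of a type cannot be told apart. Vldlr, the receptor of very-low-density lipoprotein, rose by 1.64 and 1.97. Of the 19 genes of apolipoproteins, lipases and their receptors, 3 rose and 10 fell. The count of falls was 3 under median centring. Apoa4 fell most, from 12.98 and 12.50 to 10.21 and 9.98 (-2.65 ± 0.09, adjusted p = 5.3e-09), followed by Apof (-1.37 and -1.43), Apoc3, an inhibitor of lipoprotein clearance (-1.74 and -0.92), and the phospholipid transfer protein gene Pltp (-1.08 and -0.72).

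Of 24 lipogenic genes 13 fell and 2 were called higher, of which none was called higher without array 1 and 1 without array 2. Median centring left 6 falls and 0 rises. Lpin1, a phosphatidate phosphatase and nuclear coactivator, fell from 14.92 and 14.86 to 11.36 and 11.64 (-3.39 ± 0.20, adjusted p = 2.1e-07), with the other probes at -3.13 and -3.05. Pnpla3, a lipid droplet hydrolase, fell evenly by 1.72 and 1.66, and Acss2, which makes acetyl-CoA from acetate, by 1.53 and 0.91. Scd2 was 1.19 and 0.94, and its call was lost with either array left out (adjusted p = 0.18 and 0.15). Genes of fatty acid oxidation and targets of PPAR alpha numbered 34, of which 11 fell and 5 rose, or 2 and 3 rose without array 1 and array 2. By median centring 1 rose and 5 fell. Angptl4, a lipoprotein lipase inhibitor, fell by 2.74 and 2.07, Pex11a, a peroxisome proliferation factor, by 2.03 and 2.31, and Plin2, a lipid droplet coat protein, by 1.51 and 1.23. Fabp1 (-1.63 and -1.41) and Cyp4a14 (1.26 and 1.55) lost their calls without array 2 (adjusted p = 0.070 and 0.052).

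Glycogen and glucose genes moved in both directions. Gys2, the liver glycogen synthase, rose from 14.59 and 13.78 in sham to 16.55 and 16.40 in Hypox (2.29 ± 0.19, adjusted p = 4.8e-06). Ugp2, which makes its substrate UDP-glucose, rose by 0.84 and 1.15, and Irs1, an adaptor of the insulin receptor, by 1.22 and 0.94. Pfkfb3, an activator of glycolysis, fell by 0.92 and 1.60. Pck1 (-1.57 and -0.38), a gluconeogenic enzyme, and Ppargc1a (-1.04 and -1.17), a coactivator of fasting metabolism, were called lower, but neither call held with either array left out (adjusted p from 0.095 to 0.22). Of 18 genes of the list 5 rose and 8 fell, or 5 and 4 fell without array 1 and array 2. Median centring gave 3 rises and 4 falls.

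Amino acid enzymes showed no common direction, with 7 of 28 higher and 6 lower and a median of 0.02. Cth, which makes cysteine, rose from 16.45 and 15.44 to 17.78 and 17.71 (1.80 ± 0.20), Agxt, the alanine-glyoxylate aminotransferase, by 1.08 and 1.90 and Oat, the ornithine aminotransferase, by 1.34 and 1.39. Prodh, the proline dehydrogenase, fell by 1.93 and 1.73 and Arg1, the arginase of the urea cycle, by 1.20 and 0.95. Glul, the glutamine synthetase, was -0.75 and -0.89, which was lost without array 2 (adjusted p = 0.064). The counts depended on the arrays, since 4 rose without array 1 and 3 fell without array 2. With median centring 3 rose and 1 fell.

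Of 16 glucocorticoid genes 5 fell and 1 rose. Fkbp5, a glucocorticoid-induced chaperone of the receptor, fell from 11.28 and 11.79 to 9.20 and 9.24 (-2.32 ± 0.14, adjusted p = 2.6e-07). Sds, the serine dehydratase, fell by 0.92 and 0.68. Serpina6, which encodes corticosteroid-binding globulin, rose by 1.08 and 1.27. Cdkn1a (-1.01 and -2.38) and Errfi1 (-1.09 and -1.53) lost their calls without array 2 (adjusted p = 0.14 and 0.20). With Pck1 (adjusted p = 0.13), given above, also lost there, 2 falls were called. Median centring left 3 falls. Other classical targets were not called, among them Tat at 0.05 and 0.06, Tsc22d3 at -0.23 and -0.44, and the metallothionein genes Mt1 at -0.06 and 0.28 and Mt2 at -1.26 and 0.07.

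Clock genes moved in both directions. Dbp, a D-box-binding factor, went from 10.94 and 10.92 in sham to 13.32 and 13.30 in Hypox (2.38 ± 0.27, adjusted p = 4.7e-05), and Tef, of the same family, rose by 1.97 and 1.93, while Hlf, another member, was -0.47 and -0.80, a call lost without array 2 (adjusted p = 0.36). The nuclear receptor repressor genes rose, Nr1d1 by 1.66 and 1.73 and Nr1d2 by 1.77 and 2.38. For Tef and Nr1d1 other probes gave 0.23 to 0.42. Cry1, a repressor of the clock, fell by 1.16 and 1.43. Per3 was 1.32 and 1.07, and its call was lost without array 1 (adjusted p = 0.079). In all 6 of 19 clock genes rose and 5 fell, or 2 fell without array 2. Under median centring 1 fell. The core activator Arntl was -0.77 and -1.34 without being called. Times of day of killing are not given in the sources used here, and whether they differed between groups was not tested.

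Drug-metabolising enzymes moved in both directions. Of 30 tested 13 were called higher and 8 lower, with a median of 0.41. Without array 1 these counts were 7 and 5, and without array 2 they were 11 and 3. Under median centring they were 7 and 1. The rises were led by alpha-class glutathione transferases: Gsta1 went from 13.13 and 13.47 to 16.37 and 15.95 (2.86 ± 0.20, adjusted p = 1.1e-06) and Gsta2 from 13.39 and 13.58 to 16.19 and 15.90. Their near-identical sequences may share signal. Ephx1, the microsomal epoxide hydrolase, rose by 1.23 and 0.83. Gstm1 (1.05 and 1.38) and Cyp2c55 (1.97 and 1.28) lost their calls without array 1 (adjusted p = 0.053 and 0.093). The largest change went down: Cyp2f2 fell from 17.65 and 18.36 to 13.41 and 14.48, or -4.06 ± 0.89, but its SE was large and its call was lost with either array left out (adjusted p = 0.063 and 0.062).

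Secreted plasma proteins were affected gene by gene. Of 19 serpins 3 rose and 7 fell. The falls numbered 4 under median centring. In the clade of protease inhibitors at 1 locus, Serpina3k fell from 17.64 and 18.21 to 13.26 and 14.51 (-4.04 ± 0.29, adjusted p = 1.2e-06), Serpina3m by 2.59 and 2.19 and Serpina3c by 2.07 and 2.15, while these copies are alike in sequence and may share signal. Serpina11 fell by 1.57 and 0.99. Of 35 complement and coagulation genes 10 fell and 3 were called higher, and none was called higher with either array left out. Median centring gave 0 rises and 2 falls. F11, coagulation factor XI, fell by 1.74 and 1.89, C8g by 1.28 and 1.11, Mbl2, a lectin that starts complement, by 1.42 and 0.68, Masp1 by 0.75 and 0.94, and F12 by 0.67 and 0.74. C6 was -0.75 and -0.94, a call that neither array alone gave (adjusted p = 0.10 and 0.36). Of 18 acute phase proteins 1 was called higher and 3 lower, and the share of falls was near the 16.5% of all genes. With array 1 left out 1 was called lower, with array 2 left out none was, and no rise was called in either case. No member was called under median centring.

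Heat shock chaperones fell together. Of 15 tested 12 were lower and none was higher, with a median of -0.71, and 11 and 8 were lower without array 1 and array 2. After median centring 4 were lower. Hsph1 went from 13.58 and 14.44 to 12.08 and 12.43 (-1.76 ± 0.19), and Hsp90aa1, the inducible HSP90, from 15.71 and 16.49 to 14.58 and 14.97 (-1.32 ± 0.18). The cochaperone genes Dnaja1 and Dnajb1 fell by 1.03 and 1.07 and by 1.16 and 0.84, and Chordc1 by 0.72 and 1.03. Bag3 was -0.88 on both arrays and lost its call with either array left out (adjusted p = 0.051 and 0.087). In the endoplasmic reticulum 5 of 21 folding and stress genes fell and 1 rose, and 2 fell without array 2. With median centring 1 fell and 1 rose. Dnajc3, a cochaperone of BiP, fell by 0.66 and 1.46 and Herpud1 by 0.99 and 0.65, while Ddit3, the stress factor CHOP, rose by 0.90 and 1.13. Creld2, Dnajb11 and Calr, at means of -0.73, -0.57 and -0.40, lost their calls without array 2 (adjusted p = 0.48, 0.36 and 0.40), and Calr also without array 1 (adjusted p = 0.10).

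Lists of basic cell functions held few calls of rises, while 14.6% of all genes were called higher and 16.5% lower. The falls in the ribosome biogenesis and cell cycle lists were near that share of falls. Of 20 ribosome biogenesis genes 1 rose and 4 fell, of 23 respiratory chain subunits 2 and 6, and of 20 cell cycle genes 1 and 3, and list medians were -0.09, -0.07 and -0.37. Without array 1 the calls were 0 and 3, 1 and 4, and 1 and 2, and without array 2 they were 1 and 1, 0 and 2, and 0 and 0. Under median centring they were 0 and 0, 0 and 0, and 0 and 1. Nolc1, a nucleolar chaperone, fell by 0.67 and 1.02, and Cox5a, a cytochrome c oxidase subunit, by 0.97 and 0.39. Rrm2, the ribonucleotide reductase subunit of dividing cells, was -1.10 and -1.41 and lost its call without array 2 (adjusted p = 0.053). Among fetal liver genes 4 of 8 tested were higher: Krt23 rose from 10.35 and 9.51 to 13.32 and 13.24 (3.35 ± 0.26), Igf2bp3, an RNA-binding protein of fetal tissue, by 2.91 and 3.47 (other probes 1.32 and 1.39), and Afp, alpha-fetoprotein, from 7.80 and 7.93 to 9.43 and 9.63 (1.67 ± 0.14). Igf2bp2 was 0.24 and 0.51 and lost its call without array 2 (adjusted p = 0.44).

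**Figure D3:**
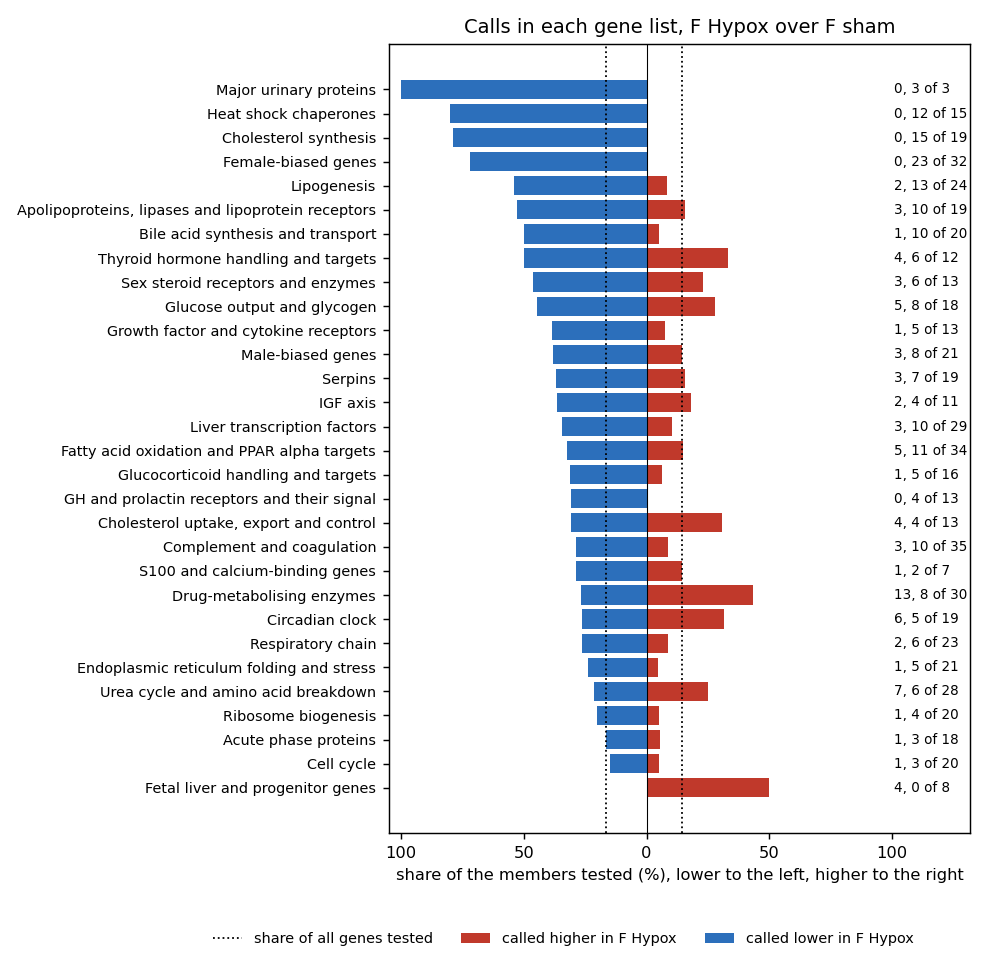
Share of the tested members of each gene list (x axis, %) called higher (red, right) or lower (blue, left) in Hypox over sham liver, with dotted lines at the shares of all 26191 genes, 14.6% higher and 16.5% lower, and the counts of members called higher and lower at the right. Cell type marker lists are not drawn. Among the lists drawn, the bars for falls are longest for the urinary proteins, heat shock chaperones, cholesterol synthesis and the female-biased genes.

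The remaining large changes concern a list of S100 and calcium-binding genes and genes outside the lists. Of 7 calcium-binding genes tested 1 was called higher and 2 lower, against 14.6% and 16.5% of all genes. Under median centring 1 was higher and 1 lower. S100g, the vitamin D-dependent calcium-binding protein calbindin D9k, rose from 7.45 and 7.75 to 11.19 and 11.96 (3.98 ± 0.29), while S100a10 fell by 1.17 and 1.33 and Rgn, a calcium-binding protein of liver, by 1.04 and 0.24. Olig1, a transcription factor known from oligodendrocytes, rose from 8.12 and 8.12 to 12.04 and 11.95, with the groups separated almost equally on both arrays (3.87 ± 0.20, adjusted p = 7.1e-08). The immediate-early nuclear receptor gene Nr4a1 rose by 4.04 and 3.42 and Dnase1, a secreted nuclease, by 3.39 and 3.61. Enpp2, which encodes the lysophosphatidic acid-producing enzyme autotaxin, rose from 12.42 and 11.93 to 15.24 and 14.93. Tox3 (3.37 and 2.48), Lrrc4 (3.18 and 2.57) and Unc93a (2.52 and 3.06) completed the largest rises.

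Among further large falls, Dct, the dopachrome tautomerase of pigment cells, fell from 15.16 and 15.15 to 9.89 and 10.24 (-5.09 ± 0.29, adjusted p = 1.5e-07), but its other probe gave -0.31. Csrp3, a LIM protein known from striated muscle, fell by 4.40 and 3.45, although no listed skeletal muscle marker was called. E2f8, a repressor of the cell cycle that drives polyploidy in liver, fell by 3.88 and 3.81 and was above background on 1 of 2 arrays in Hypox. Ptgds, a prostaglandin D synthase, fell by 3.67 and 3.63. Wfdc21, a secreted protein with a WAP domain, was -6.08 and -4.83 with an SE of 1.16, and its call was lost without array 2 (adjusted p = 0.0745).

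Markers of other cells in liver were called as follows, while 14.6% of all genes were called higher and 16.5% lower. Of 9 lymphocyte markers 4 were called higher, among them the B cell genes Ms4a1 by 1.22 and 1.95, Cd79b by 0.87 and 1.33 and Cd79a by 0.26 and 0.25, the last being lost with either array left out (adjusted p = 0.059 and 0.11). The T cell gene Cd3e stood at -0.05 on both arrays. The summed signal of the list was 11.1 and 11.3 in Hypox and 10.6 and 10.6 in sham. Of 9 macrophage markers Clec4f fell by 0.54 and 0.65, a call lost without array 2 (adjusted p = 0.062), and none rose. No neutrophil marker was called. The globin genes Hbb-bt (-1.65 and -1.04) and Hba-a1 (-1.43 and -0.83) were called lower and Alas2, of erythroid haem synthesis, rose by 1.30 and 1.44, and without array 1 the call of Hba-a1 was lost (adjusted p = 0.063). Of the 4 erythroid markers tested 3 were called lower, and 1 without array 1. Of 10 endothelial markers 3 were called lower and 1 higher, and of 10 stellate cell markers 2 and 1, and no marker of either cell was called higher with either array left out. Of the 6 hepatocyte markers 1 was called higher and 2 lower, with list medians of -0.784 and 0.395 on arrays 1 and 2. Of 6 cholangiocyte markers 1 was called higher. Median centring left 0 calls in the endothelial, stellate cell, macrophage, hepatocyte and cholangiocyte lists. It left 2 rises in the lymphocyte list and 1 fall in the erythroid list. The part of these cells in the changes above was not tested.

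Separate groups of hypophysectomised females were given GH, and 6 further arrays set their pools against F Hypox pools. Those arrays share the F Hypox group with the present comparison, so values are set side by side only. GH was given once, with death after 30 min or 90 min, or as 2 injections 4 h apart with death 30 min after the second. Cish, at -4.14 after loss of the pituitary, stood at 2.88, 4.17 and 3.98 in these 3 treatments, and Socs2, at -3.81, stood at 2.96, 3.89 and 3.60. Igf1 had 0.36, 0.73 and 1.53 (adjusted p = 0.66, 0.032 and 0.00037) and Igfals 0.30, 0.52 and 1.92. After 2 injections Serpina3k was 2.27 above Hypox (adjusted p = 0.0012), Sqle 1.74, Hmgcs1 1.28 and Prlr 1.24. Dio1 and Cux2, which also fell far, had values near 0 after 2 injections, -0.08 and 0.09 (adjusted p = 0.94 and 0.79). Lifr stood at 0.77, while Sult3a1 had -1.05 and Mup1 -0.89 (adjusted p = 0.41 for both). Of the large rises, Lpl had -0.46, Serpina7 -0.20 and Gsta1 -0.21 after 2 injections (adjusted p = 0.15, 0.59 and 0.63), and S100g -1.67 (adjusted p = 0.0055).

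**Figure D4:**
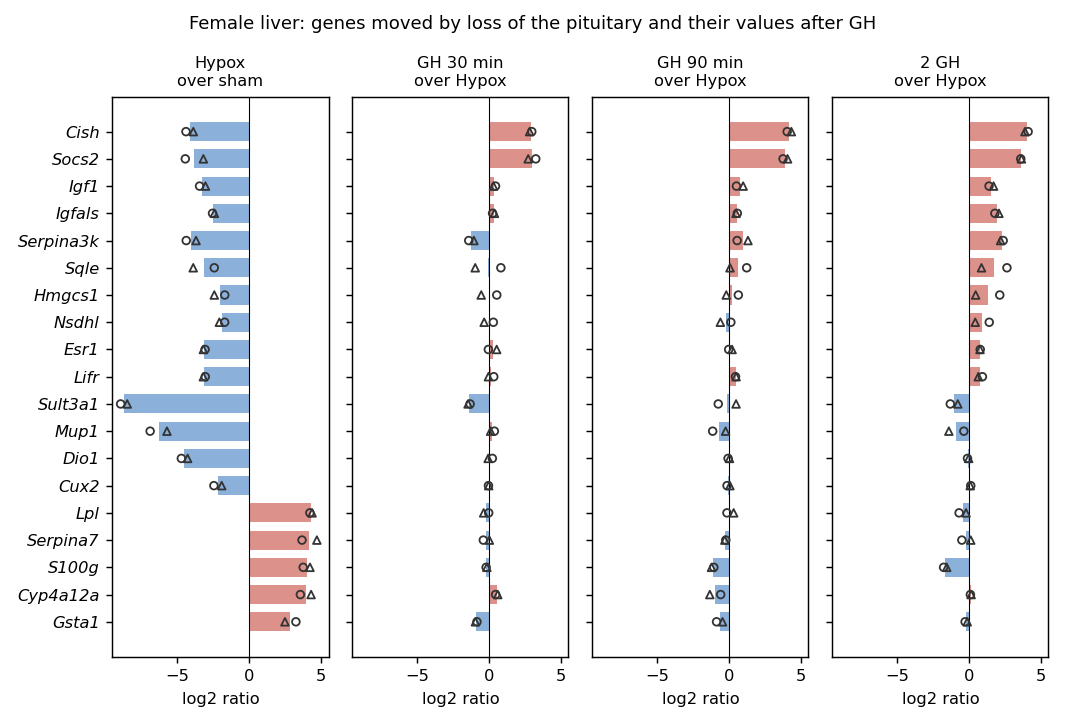
Log2 ratios (x axes) of 19 genes in 4 comparisons of female liver, Hypox over sham and GH-treated Hypox over Hypox at 30 min, 90 min and after 2 injections, with bars for the mean of 2 arrays, circles for array 1 and triangles for array 2. Cish and Socs2 are long to the left after loss of the pituitary and long to the right after GH, while the bars of Dio1, Cux2 and Lpl after GH stay within 0.5 of 0.

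Loss of the pituitary was also measured in male liver on 2 arrays of M Hypox over M sham pools, which share no mice with the female groups. In males 18.8% of genes were called higher and 18.6% lower. Most of the large changes of females had the same direction in males. Of the 57 genes at least 4-fold higher in F Hypox, 51 were called higher in M Hypox, 1 lower and 5 neither. Of the 125 at least 4-fold lower, 103 were called lower, 3 higher and 19 neither. Genes at least 4-fold higher in both sexes numbered 30, which is 52.6% of the female list and 30.3% of the 99 in the male list, and those lower in both numbered 78, 62.4% of the female and 44.8% of the 174 in the male list. The difference between the sexes' effects was called for 923 genes (3.52%) as higher in females and for 843 (3.22%) as lower.

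The sexes differed in the sex-biased genes, and skeletal muscle markers, not called in females, had a median of -2.76 over 11 genes in M Hypox over M sham. The part of muscle in the male values was not tested. Of the 32 female-biased genes 28 had a lower effect in females by the test of the difference: 23 fell in females, while in males 18 rose and 3 fell, with list medians of -1.45 and 1.11. Apart from error, the difference tested equals the M over F ratio of sham liver less that of Hypox liver. A list chosen as sex-biased is thus likely to be called wherever that bias shrinks, and the count is no independent result. Hao2, a hydroxyacid oxidase, was -1.07 and -0.63 in females, a call lost with either array left out (adjusted p = 0.27 and 0.060), and 5.40 and 5.96 in males. Slc22a26, Acot3 and Slc22a29 fell in females (-2.21, -1.74 and -1.68) and rose in males (3.49, 2.93 and 2.52). Without array 1 the female call of Slc22a29 was lost (adjusted p = 0.057). Cyp2b9 was -0.06 in females and 3.71 in males, and Sult2a2 -1.50 and 3.31, although another probe of Sult2a2 went the other way in females (0.70) and its female call was lost with either array left out (adjusted p = 0.072 and 0.34). Sult3a1 had male ratios of -1.89 and 1.60, opposite on the 2 arrays. On arrays of M sham over F sham, which share the F sham group with the present comparison, Sult3a1 stood at -8.40 and Cyp4a12a at 4.55.

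Of the 21 male-biased genes 15 had a higher effect in females, a count that depends on the choice of the list in the same way. In males 20 fell and none rose, with list medians of -0.16 in females and -2.24 in males. Cyp4a12a rose by 3.92 in females and fell by 1.71 in males. Tff3, a trefoil peptide that was above background on 1 of 2 arrays in F Hypox, was -0.05 in females and -3.70 in males, Nat8f5 -0.61 and -4.38, Gstp1 0.83 and -2.24 and Scara5 0.11 and -3.08. Adgrv1 fell in both, with -1.43 in females and -4.14 in males. Bcl6 had 0.74 in females and -1.53 in males, and Cux2 -2.18 and 0.15. Trim24 (-1.76 and 0.58), Prlr (-2.04 and -0.20) and Esr1 (-3.13 and -1.21) had lower effects in females than in males. Lpl rose in both, by 4.28 and 1.64, and Nox4 by 2.46 in females against 0.17 in males. Heat shock chaperones fell less in females: 12 of 15 had a higher effect there, Hsph1 stood at -1.76 against -3.29 and Hsp90aa1 at -1.32 against -2.87, while Hspa1a had -0.29 in females, with 2 of its 3 other probes going the opposite way, and -3.28 in males. Cish (-4.14 and -2.41), Socs2 (-3.81 and -2.55) and Igf1 (-3.25 and -2.46) fell in both sexes, and the difference was not called for any of the 3 (adjusted p = 0.33, 0.21 and 0.063).

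**Figure D5:**
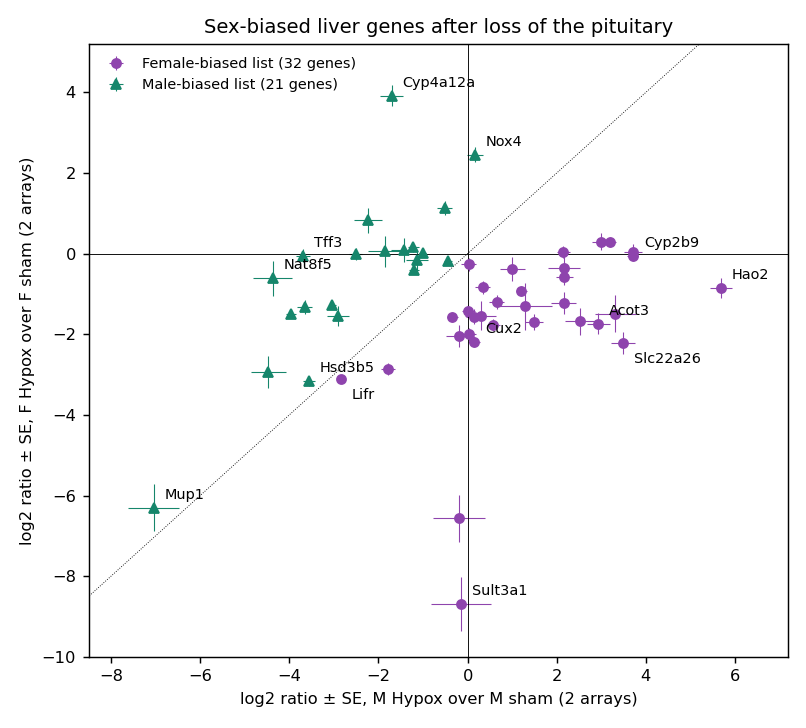
Log2 ratio of Hypox over sham in males (x axis) and females (y axis) for genes listed as female-biased (circles) and male-biased (triangles), each the mean of 2 arrays with error bars of 1 SE from the limma fit, and a dotted line at equal effects. Circles such as Hao2 and Slc22a26 lie to the lower right of the line, and triangles such as Cyp4a12a, Nox4 and Tff3 lie to its upper left.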

How the data were processed

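Liver RNA pools were amplified and hybridised in pairs on 22 two-colour Agilent 4x44K arrays, per the labels. The deposited scanner files give spot and background intensity per channel, flags and a log10 ratio, made with Agilent Feature Extraction 9.5.1.1 and 9.5.3.1 per the submitters' processing notes. A deposited value table holds log2 ratios, each column equal within rounding to a scanner file, for 16 of 22 that of the other replicate. Its column medians lie between -0.03 and 0, and it was used as an alternative.

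Background was corrected by normexp with an offset of 50, and a loess curve was fitted per array, in limma 3.58.1 under R 4.3.3. Control spots were left out, spots of a probe were averaged, and the brightest probe stood for a gene. Genes entered the test where the scanner flagged either channel as well above background on the 2 arrays of any comparison. Symbols came from a RefSeq table (GRCm38.p6). One limma model covered 22 arrays with 11 comparison coefficients and a dye term (10 residual degrees of freedom), followed by Benjamini-Hochberg adjustment, and was tested on simulated data. Signal levels are log2 values after Aquantile normalization, and no probe's level is set against another's. With 1 array left out, the remaining array is assumed to vary like the other comparisons. p-values measure the spread between arrays of the same comparison, taken over the series. That spread mixes differences between pools with those between hybridisations. Mice of a group recur on arrays of several comparisons, so the pools are not all independent.

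Named genes were the 15 largest rises and falls, up to 6 members of each list with the largest calls first, the 8 largest sex differences each way, and Cish, Socs2, Igf1, Bcl6 and Cux2. Members of lists named without a call, Tm7sf2, Hlf and the additional sex differences were chosen after their values were seen. Members and lists were chosen with earlier results of these data known. Alternatives covered background correction, normalization, filters, probes, dye, arrays, slide, scan day, replicate number and the value table. Some genes that this rule names are not reported here.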

Additional observations from a re-analysis of the deposited data

Results flagged for a closer look

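The difference between the effects of losing the pituitary in females and in males was tested for all 26191 genes. It is the contrast of both effects in the limma fit, with Benjamini-Hochberg adjustment over all genes. The difference was called as higher in females for 923 genes (3.52%) and as lower for 843 (3.22%). For 31 named genes it is given in this text, and 28 of them were called. Many were named because their called difference was large, so that count follows in part from the choice. Each value is the log2 effect in F minus the log2 effect in M, from 2 arrays in each sex.

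The effect was higher in females for 12 of them. The male-biased genes Cyp4a12a (5.62, adjusted p = 1.6e-06), Nat8f5 (3.77, adjusted p = 0.0030), Tff3 (3.64, adjusted p = 1.6e-06), Gstp1 (3.06, adjusted p = 0.0015) and Nox4 (2.29, adjusted p = 0.00022) were among these. So were Adgrv1 (2.71, adjusted p = 1.7e-05), Lpl (2.64, adjusted p = 6.1e-05), Bcl6 (2.28, adjusted p = 0.0046) and Scara5 (3.19, adjusted p = 0.023). The heat shock genes Hspa1a (2.98, adjusted p = 0.0013), Hsp90aa1 (1.54, adjusted p = 0.0030) and Hsph1 (1.53, adjusted p = 0.0052) complete them.

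The effect was lower in females for 16. The female-biased genes were Sult3a1 (-8.55, adjusted p = 0.00019), Hao2 (-6.53, adjusted p = 6.1e-07), Slc22a26 (-5.70, adjusted p = 2.9e-06), Sult2a2 (-4.81, adjusted p = 0.00082), Acot3 (-4.67, adjusted p = 9.4e-06), Slc22a29 (-4.20, adjusted p = 0.00022), Cyp2b9 (-3.77, adjusted p = 2.1e-07), Trim24 (-2.34, adjusted p = 3.3e-05), Cux2 (-2.33, adjusted p = 1.5e-05) and Prlr (-1.84, adjusted p = 0.014). The others were Cyp4a14 (-2.29, adjusted p = 0.0036), Esr1 (-1.92, adjusted p = 6.1e-05), Vldlr (-1.74, adjusted p = 0.0025), Serpina6 (-1.70, adjusted p = 0.00014), Fkbp5 (-1.17, adjusted p = 0.0040) and Igfals (-0.59, adjusted p = 0.030).

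With 1 female array left out some of these calls were lost. Without array 1 this held for Bcl6 (adjusted p = 0.054), Hsph1 (adjusted p = 0.052), Igfals (adjusted p = 0.12), Prlr (adjusted p = 0.089) and Scara5 (adjusted p = 0.11). Without array 2 it held for Fkbp5 (adjusted p = 0.054), Igfals (adjusted p = 0.14), Prlr (adjusted p = 0.064) and Scara5 (adjusted p = 0.10). The difference of Sult3a1 was called with either array left out (adjusted p = 0.0023 and 0.0039), but not with the scanner's log ratio (adjusted p = 0.077), the deposited table (adjusted p = 0.080) or a fit on the 4 arrays alone (adjusted p = 0.073). Of the 31 differences, 16 lost their call in that fit, 3 with the scanner's log ratio, 2 with the deposited table and 2 without the dye term. Median centring ended 7 of the calls, those of Bcl6, Scara5, Hsph1, Hsp90aa1, Fkbp5, Prlr and Igfals (adjusted p from 0.050 to 0.40).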

How the results depend on the processing

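No named gene changed direction while called under the alternatives tried, and the counts of calls were within 1.5 times of 3825 higher, 4317 lower and 1766 sex differences except as follows. Median centring in place of loess gave 902 higher, 995 lower and 147 differences. A fit on the arrays of the comparison alone gave 1524, 1981 and 82, with fewer residual degrees of freedom by construction. The loop model, with 1 level per group of mice, gave 5806 differences; the cause was not tested. Leaving out each array in turn gave 1633 to 2202 higher, 1763 to 2785 lower and 698 to 854 differences. With the replicate number as a block the counts were 3968 higher, 4437 lower and 1908 differences. Deviations of same-numbered arrays correlated between -0.436 and 0.317, over 0.1 in 7 of 10 comparisons. The lowest value was that of M Hypox over F Hypox, which has F Hypox as second group and the opposite dye orientation. Same-numbered arrays of M Hypox over M sham and of GH over Hypox in both sexes share the dye orientation with these arrays. Those of the female GH comparisons also share the slide, and these parts of the correlation were not separated. The values therefore do not settle whether the numbers pair the samples, and they were not taken to do so. Of 193 named genes and list members, 38 lost their call under median centring. Signal over background limits the dim genes: 192 called genes were not above background on either array in Hypox and 55 in sham, so their ratios are no measured levels in that group.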
